A study of Mus musculus with 24 samples.

Results

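The nuclear genes of the mitochondrial respiratory chain were followed through 24 RNA-seq libraries of mouse intrahepatic cholangiocytes, the epithelial cells that line the bile ducts. Members were the protein-coding genes whose symbols name a subunit: Ndufa, Ndufb, Ndufc, Ndufs and Ndufv with a number, Sdha to Sdhd, Uqcr, Cyc1, Cox4 to Cox8 and Atp5. The choice used names only and no measured value. It gave 85 of the 49315 genes in the deposited tables, of which 21811 are protein-coding. Complex I held 35 members, complex II 4, complex III 9, complex IV 17 and complex V 16. Ndufa4, Ndufa4l2, Cox7a2l and Atp5s match by name and were set apart, because their placement among the subunits is not settled by the symbol. A further 10 matching names belong to non-coding genes and were not counted as members.

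The titles give 8 groups of 3 libraries: for each sex, untreated WT, secretin-treated WT (WT secretin), untreated dnTGFB and secretin-treated dnTGFB (dnTGFB secretin). In dnTGFB mice a transgene for a dominant-negative form of TGF-β receptor II models primary biliary cholangitis, in which the immune system attacks the bile ducts; its promoter was not given in the sources used here. Secretin is a gut hormone whose receptor sits on cholangiocytes. Osmotic minipumps in the peritoneum, replaced after 1 month, delivered a daily dose of 4 µg per kg body weight over 8 weeks. Secretin-treated mice were 40 weeks old when killed and untreated WT mice 32, so in the WT comparison secretin and age cannot be told apart; the age of untreated dnTGFB mice is not given. Each group is 1 pool of cholangiocytes from 6 to 8 mice, captured with an antibody on magnetic beads, and the pool was sequenced in triplicate. The p-values therefore measure how libraries of 1 pool vary, and not how mice do. The genotype label goes against the title in 12 libraries (WT secretin and untreated dnTGFB); the titles, which match the design text, were followed.

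Oxidative phosphorylation passes electrons from NADH and succinate to oxygen and stores the energy as a proton gradient. Complexes I and II take in electrons, complex III passes them to cytochrome c, complex IV reduces oxygen, and complex V, the ATP synthase, spends the gradient to make ATP. Complexes I, III, IV and V are mosaics of subunits made from nuclear and from mitochondrial genes, while complex II is wholly nuclear. A few complex IV subunits exist in a form typical of heart and skeletal muscle and a form made in liver and most other tissues: Cox6a2 and Cox6a1, Cox7a1 and Cox7a2, Cox8b and Cox8a. Bile duct cells are an epithelium with moderate respiratory capacity, and heart muscle is among the tissues richest in these transcripts.

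Several libraries stood apart from the others of their group, and most results turn on them. Depth was 15225605 to 30203330 counts in 11 male libraries and 1429218 in male dnTGFB library 3, and 6483182 to 104003184 counts in the female libraries. The sum of 10 heart markers (Myh6, Myl2, Tnnt2 and others) was 54035, 62067, 55260 and 54269 CPM (counts scaled to a common library total) in female WT secretin libraries 2 and 3 and dnTGFB libraries 1 and 2, and 414 to 2728 CPM in the other 8 female libraries. In these 4 libraries the Y-linked gene Ddx3y, scaled as the gene levels further below, was at 55.1 to 98.5 CPM, while the other 8 did not exceed 6.40 CPM. The 10 biliary markers summed to 95.2 to 1197 CPM in these 4 and to 591 to 5376 CPM in the other 8. The ranges overlap, with WT library 2 at 591 and dnTGFB secretin library 1 at 612 CPM. Xist, an RNA typical of female cells and on the same scale as Ddx3y, was at 19.4 to 87.9 CPM in these 4 and 39.2 to 312 CPM in the other 8. Ddx3y goes against the female label of these 4 libraries, although they also hold Xist. Whether they come from the pools they are labelled with is not known. They are called by their titles, and the female tests are given with and without them. Male dnTGFB library 3 had 16226 CPM of heart markers, against 39.0 to 975 CPM in the other male libraries, and 6824 CPM of neuron markers. All 10 heart markers had reads in every library. Of the biliary markers Cftr was at 0 in male dnTGFB library 3, and all the others had reads in every library. Biliary markers outweighed hepatocyte markers in 6 of 24 libraries. By the chi-square per gene at equal depth, where 1 is sampling noise, the nearest library was one of the own group for 10 of 12 male and 6 of 12 female libraries. Female WT library 2 was nearest to dnTGFB secretin library 1 (1.16), and WT secretin library 1 to dnTGFB secretin library 3 (1.42). Male WT library 1 was nearest to dnTGFB library 2.

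The promoters of the members are shown because they carry a feature that the choice by name did not use. RefSeq windows (GRCm38.p6) from 250 bases before to 50 after the start were matched for 66 of the 85 members and for 17492 protein-coding genes in all. The binding motif of NRF-1, a transcription factor known for nuclear genes of mitochondria, was searched on both strands as GCGC, any base and TGCGC in a row, and was found in 16 member windows (24.2%) and in 6.6% of all windows. The ETS motif CCGGAAG, of the kind bound by GABP (also called NRF-2), was in 22.7% against 11.9%. The YY1 motif, AAGATG followed directly by GCGG, was in 6.1% against 1.3%, the Sp1 motif GGGCGG in 39.4% against 46.3%, and TATAAA in 10.6% against 13.3%. Motifs were counted also where they overlap another motif. Median GC content was 57.2% against 56.3%. A match describes letters and not a bound site. The windows below run 150 bases up to or just past the start, all on GRCm38, with NRF-1 and ETS matches in capitals; Sp1 matches, present in the windows of Ndufb4 and Cox6a1, are left in lower case. Sdha (chr13:74350241-74350390, minus strand) held 3 NRF-1 matches, Ndufb4 (chr16:37654369-37654518, minus strand) 2, and Cox6a1 (chr5:115348959-115349108, minus strand) 1, with an ETS match near its start. The heart isoform Cox8b (chr7:140900447-140900596, minus strand) held none of the motifs in these bases. The liver isoforms Cox7a2 and Cox8a and the heart isoform Cox7a1, not printed, also held no NRF-1 or ETS match in their 150 bases. Cox8a held 2 ETS matches in its longer window, across and after the start.
Sdha: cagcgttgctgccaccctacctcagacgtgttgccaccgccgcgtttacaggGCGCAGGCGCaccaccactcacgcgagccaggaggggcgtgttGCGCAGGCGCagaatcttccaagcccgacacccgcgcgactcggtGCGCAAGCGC
Ndufb4: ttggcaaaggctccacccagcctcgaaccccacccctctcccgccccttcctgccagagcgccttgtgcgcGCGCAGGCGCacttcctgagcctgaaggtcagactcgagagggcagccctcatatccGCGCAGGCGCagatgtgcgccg
Cox6a1: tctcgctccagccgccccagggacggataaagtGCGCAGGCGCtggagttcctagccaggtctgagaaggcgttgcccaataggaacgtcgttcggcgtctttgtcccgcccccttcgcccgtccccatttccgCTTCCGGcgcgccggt
Cox8b: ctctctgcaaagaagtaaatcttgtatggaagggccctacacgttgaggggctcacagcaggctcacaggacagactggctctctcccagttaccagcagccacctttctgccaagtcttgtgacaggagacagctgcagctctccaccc

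The heart and liver isoforms are different genes on different chromosomes, which bears on whether reads can be told apart. Cox6a2 (chr7:128205435-128206387, minus strand), Cox7a1 (chr7:30184144-30186078, plus strand) and Cox8b (chr7:140898945-140900446, minus strand) all lie on chromosome 7, as do Cox6b1 and Cox6b2. Their partners are Cox6a1 on chromosome 5, Cox7a2 on chromosome 9 and Cox8a on chromosome 19. Aligned coding sequences of GENCODE M21 were identical at 66.6% of bases for Cox6a1 and Cox6a2, 66.9% for Cox7a2 and Cox7a1, and 68.6% for Cox8a and Cox8b. The longest identical run was 12, 12 and 10 bases, far shorter than a sequencing read. The coding sequences of Cox8a (210 bases) and Cox8b (213 bases) are printed with the bases that do not match in the alignment in capitals.
Cox8a: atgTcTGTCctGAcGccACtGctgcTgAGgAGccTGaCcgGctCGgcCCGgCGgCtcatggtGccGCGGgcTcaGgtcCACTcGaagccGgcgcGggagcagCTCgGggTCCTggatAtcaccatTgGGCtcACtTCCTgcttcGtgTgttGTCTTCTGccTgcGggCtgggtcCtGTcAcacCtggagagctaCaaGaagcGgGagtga
Cox8b: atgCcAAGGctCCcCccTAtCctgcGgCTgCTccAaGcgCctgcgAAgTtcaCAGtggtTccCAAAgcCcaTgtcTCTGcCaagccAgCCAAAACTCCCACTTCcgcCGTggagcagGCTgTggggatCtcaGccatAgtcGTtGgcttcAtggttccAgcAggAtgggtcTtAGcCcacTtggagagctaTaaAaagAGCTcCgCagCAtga

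Gene levels from here on, and those of Xist and Ddx3y throughout, are CPM scaled by the trimmed mean of M-values (TMM) within each sex. A gene's level is therefore not compared between sexes. Marker sums stay CPM of the library total. To order the genes, each gene's median over the 24 libraries was taken per kilobase of the gene's exon length, which can exceed that of its transcript. The order depends on that length, which was 8086 bases for Ndufs1, 5628 for Ndufb2 and 702 for Cox6a1. Subunit genes of complex IV led: Cox6a1 had 269.6 CPM per kilobase, Cox4i1 266 and Cox8a 247. Atp5a1 and Atp5b, the catalytic α and β subunits of ATP synthase, followed at 159 and 132 CPM per kilobase. Of complex I, Ndufa2 was highest at 127. The lowest levels were those of Ndufa4l2 (9.17), the core complex I subunit Ndufs1 (7.09), Ndufb2 (5.07), Atp5s (3.71), Cox4i2 (3.67) and Cox6b2 (2.01), while the testis-enriched Cox7b2 and Cox8c had a median of 0. Cox7b2 and Cox8c did not pass the filter on low counts, so 83 of 85 members were tested in each sex.

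In male mice the members' summed level differed little within groups apart from the library with heart markers. The sum over all members was 7595, 7994 and 8050 CPM for WT, 6609, 6032 and 6179 for WT secretin, 7296, 7093 and 25912 for dnTGFB and 8233, 8527 and 8217 for dnTGFB secretin. On this scale WT secretin libraries were the lowest, dnTGFB secretin libraries the highest but for dnTGFB library 3, which lay far above the others of its pool. As a share of all counts the order differed. Members made up 0.536, 0.912 and 0.909% for WT, 0.752, 0.684 and 0.697% for WT secretin, 0.415, 0.403 and 3.09% for dnTGFB and 1.02, 1.06 and 1.03% for dnTGFB secretin. In female mice the sum was 7861, 9581 and 7695 CPM for WT, 6368, 87606 and 75385 for WT secretin, 60511, 76517 and 8153 for dnTGFB and 10770, 7692 and 6676 for dnTGFB secretin. The 4 female libraries with heart markers held 5.14% to 5.72% of all counts in these genes, and the other female libraries 0.844% to 1.01%. In bulk RNA, more cells of a type and more RNA per cell cannot be told apart.

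**Figure D1:**
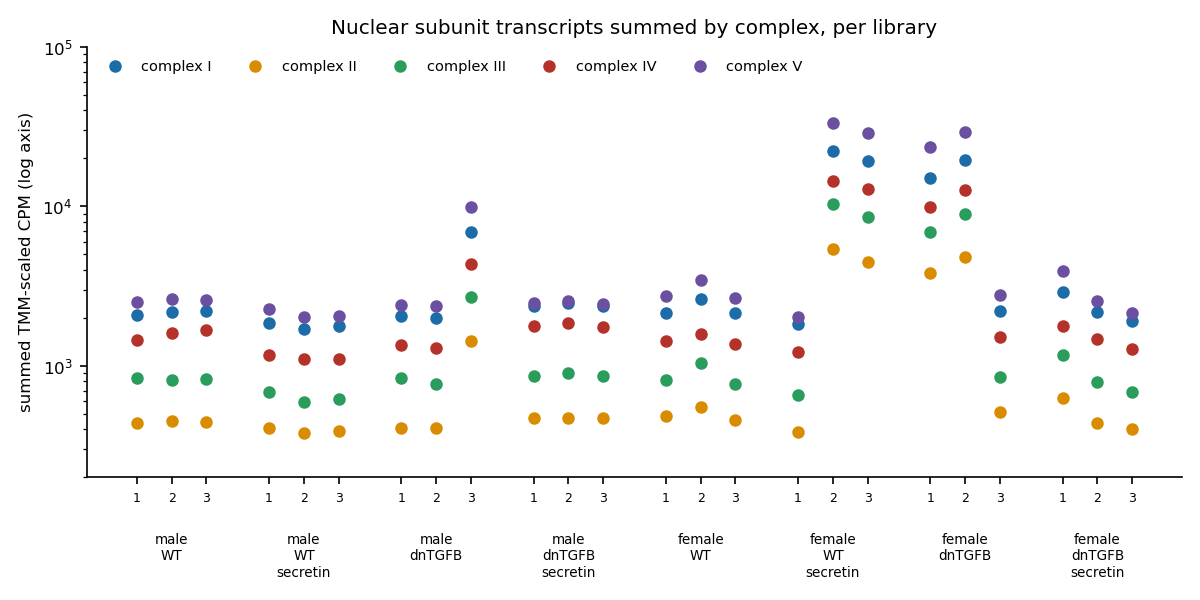
TMM-scaled CPM summed over the members of each complex (log axis) in each of the 24 libraries, by group and replicate number; each point is 1 library. The 5 complexes keep their order, with complex V highest and complex II lowest, and female WT secretin 2 and 3, female dnTGFB 1 and 2 and male dnTGFB 3 lie above all other libraries of their sex.

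The isoform pairs of complex IV separated these libraries more sharply than the totals did. Cox6a2, the heart form of subunit 6a, was at 5.72, 35.7 and 14.7 CPM for female WT, 12.2, 1648 and 1630 for WT secretin, 1323, 1601 and 12.5 for dnTGFB and 52.1, 22.9 and 17.6 for dnTGFB secretin. Its liver form Cox6a1 was at 189, 206 and 178 CPM, 167, 182 and 172, 181, 194 and 202 and 194, 179 and 171 in the same order of groups. Cox6a2 was thus above 1000 CPM in the 4 libraries with heart markers and below 60 CPM in the other 8, whereas Cox6a1 stayed between 167 and 206 CPM in all 12.

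The heart form of subunit 8 separated the libraries in the same way. Cox8b was at 3.22, 14.9 and 6.92 CPM for female WT, 4.62, 701 and 646 for WT secretin, 473, 634 and 4.39 for dnTGFB and 25.1, 10.01 and 7.31 for dnTGFB secretin. Cox8a was at 140.5, 112 and 123 CPM, 106, 166 and 163, 163, 181 and 146 and 113, 126 and 107. Cox8a spanned 163 to 181 CPM in the 4 libraries with heart markers and 106 to 146 CPM in the other 8, while Cox8b spanned 473 to 701 CPM and 3.22 to 25.1 CPM. In subunit 7a, Cox7a1 was at 12.9, 25.6 and 16.9 CPM, 13.5, 1263 and 1004, 722, 1010 and 15.6 and 41.8, 20.4 and 18.1, and its liver form Cox7a2 was at 63.7, 82.4 and 62.0, 49.0, 483 and 405, 323, 417 and 65.4 and 85.7, 64.6 and 49.1. Both forms were higher in the 4 libraries, as for subunit 8, and the liver form Cox7a2 differed more than Cox8a.

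Per kilobase, the 3 heart forms made up 6.52, 19.5 and 11.7% of the heart and liver forms together in female WT, 10.4, 86.2 and 86.2% for WT secretin, 83.7, 85.1 and 8.73% for dnTGFB and 28.1, 15.2 and 14.0% for dnTGFB secretin. The group means were 12.6% ± 6.5 (SD, n = 3), 60.9% ± 43.8, 59.2% ± 43.7 and 19.1% ± 7.8, so in WT secretin and dnTGFB the spread between libraries under 1 title is nearly as large as the mean. In males the share was 14.7, 10.8 and 9.23% for WT, 13.9, 2.52 and 1.97% for WT secretin, 4.26, 9.09 and 56.5% for dnTGFB and 11.04, 10.1 and 11.7% for dnTGFB secretin. WT secretin libraries 2 and 3 were the lowest of all 24 and held the fewest heart markers, 39.0 and 45.4 CPM, while library 1 of the same pool held 975 CPM.

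**Figure D2:**
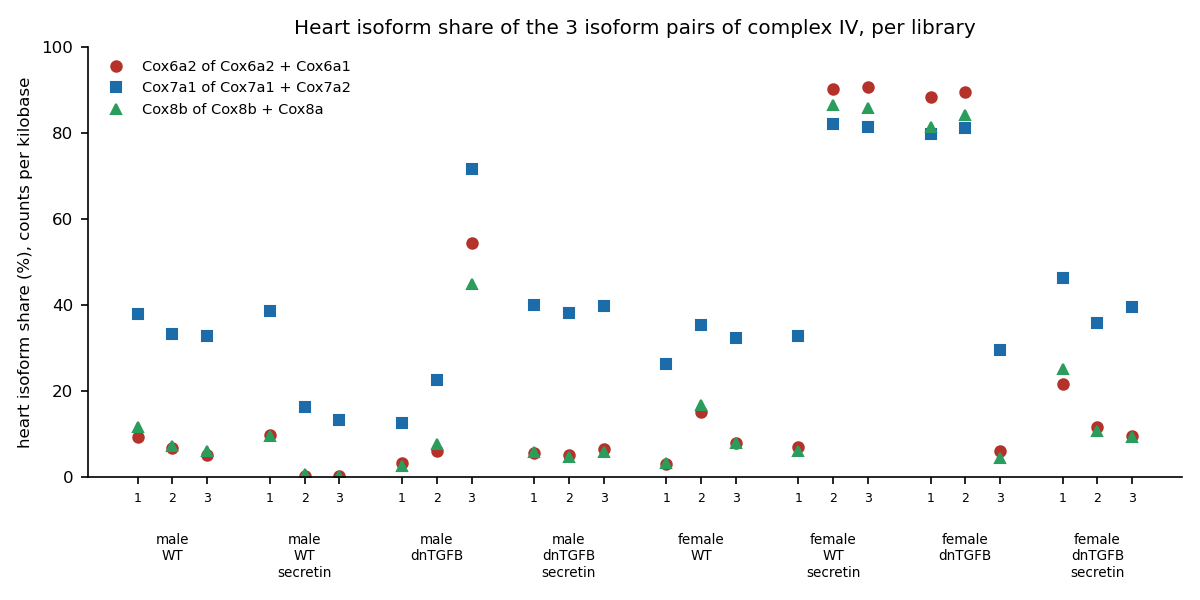
Share of the heart isoform in each heart and liver pair of complex IV (percent of counts per kilobase) in each of the 24 libraries, by group and replicate number. In female WT secretin 2 and 3 and dnTGFB 1 and 2 all 3 shares are at least 79.8%, in male dnTGFB 3 they range from 45.0% to 71.6%, and in that library and the 19 others Cox7a1 has the highest share of the 3.

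The 3 male pairs repeat this within smaller bounds. Cox6a2 was at 20.0, 17.1 and 13.9 CPM for male WT, 17.3, 0.540 and 0.472 for WT secretin, 6.23, 11.3 and 264 for dnTGFB and 13.1, 12.8 and 15.1 for dnTGFB secretin. Library 1 of WT secretin and library 3 of dnTGFB lay far above the others of their pool. Cox6a1 was at 199, 246 and 264 CPM, 162, 172 and 169.9, 189.6, 178 and 227 and 225, 238 and 224, with WT secretin lowest and no overlap with WT. No difference of a heart form between male groups passed the test over all 12 libraries.

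**Figure D3:**
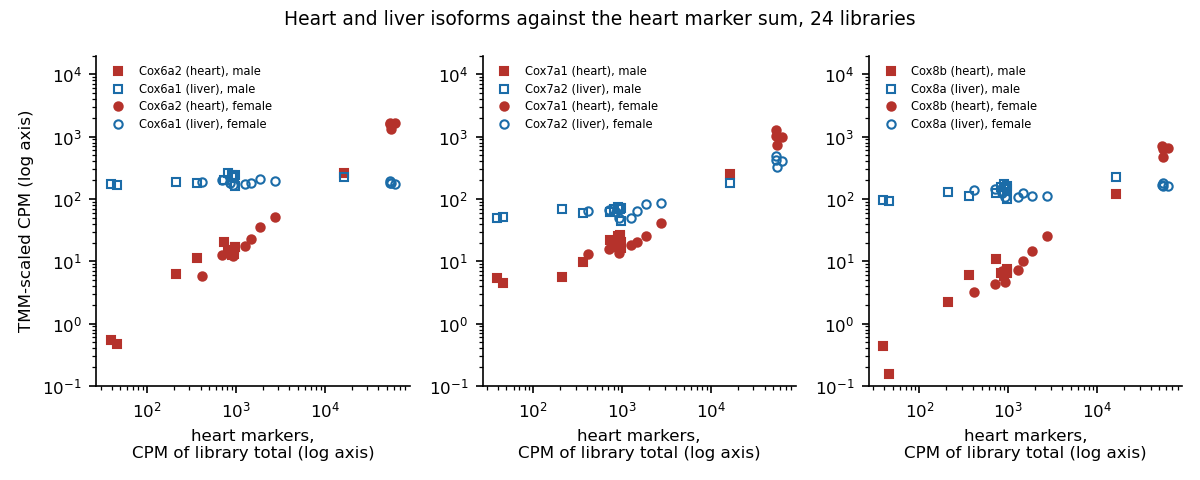
TMM-scaled CPM of the heart form (filled red) and the liver form (open blue) of subunits 6a, 7a and 8 against the summed heart markers of the same library, both on log axes; squares are male and circles female libraries, scaled within each sex. The heart forms climb with the marker sum across all 24 libraries, while Cox6a1 stays nearly level.

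Other families with tissue-typical members showed the same libraries. Of the genes Atp5g1, Atp5g2 and Atp5g3, which all encode the c subunit of the ATP synthase rotor, Atp5g1 made up 9.76, 28.4 and 28.1% per kilobase in female WT secretin and 26.7, 27.2 and 10.6% for dnTGFB. In female WT it made up 10.8, 14.9 and 12.4% and in dnTGFB secretin 15.1, 11.3 and 10.8%. Atp5g2 took the opposite course, with 29.8, 8.99 and 9.17% for WT secretin and 9.94, 9.24 and 30.2% for dnTGFB, and Atp5g3 held between 58.8% and 63.8% in every female library. Slc25a4, the adenine nucleotide carrier of heart and muscle and not itself a member, was 93.2% to 94.5% of Slc25a4 and Slc25a5 in the 4 libraries with heart markers and 45.2% to 61.7% in the other female libraries.

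As shares of their pair, Cox4i2 and Ndufa4l2 were highest in another set of libraries. Cox4i2, a lung-typical and oxygen-responsive form of subunit 4, was at 1.16, 0.960 and 5.35 CPM for female WT, 4.62, 13.7 and 11.5 for WT secretin, 8.71, 11.6 and 1.45 for dnTGFB and 1.00, 9.08 and 6.03 for dnTGFB secretin. Ndufa4l2, a hypoxia-inducible relative of Ndufa4, made up 7.06, 13.3 and 21.2% of both per kilobase in WT, 17.9, 3.34 and 3.30% for WT secretin, 3.37, 3.18 and 4.33% for dnTGFB and 11.6, 26.8 and 20.8% for dnTGFB secretin. Cox4i2 made up 0.598, 0.464 and 2.87%, 2.62, 0.744 and 0.697%, 0.710, 0.740 and 0.673% and 0.442, 4.27 and 3.22% of Cox4i2 and Cox4i1 in the same groups. Both shares were highest in WT 3, WT secretin 1 and dnTGFB secretin 2 and 3. Markers of pericytes and smooth muscle, a cell type known for both genes, summed to 844, 990, 1378 and 1167 CPM in these 4 libraries and to 332 to 430 CPM in the 4 others without high heart markers, but to 2170 to 2452 CPM in the 4 with them; their part in the result was not tested. No difference of Cox4i2 or Ndufa4l2 between female groups passed the test.

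The first male comparison asks how the bile duct cells of dnTGFB mice differ from WT. Of 83 members tested, 1 rose and 1 fell at an adjusted p under 0.05 (edgeR's quasi-likelihood F test with Benjamini-Hochberg adjustment over all 18777 genes), whereas 8.55% of all genes rose and 8.46% fell. Uqcrq, a small subunit of complex III, was at 125, 98.6 and 98.8 CPM for WT and 157, 132 and 319 for dnTGFB. The groups do not overlap, and the log2 fold change by edgeR was 0.91 ± 0.28, adjusted p = 0.0473. Cox7a2l, which helps to assemble supercomplexes of complexes III and IV, was at 147, 178 and 174 CPM for WT and 95.8, 107 and 129.8 for dnTGFB. All 3 dnTGFB libraries lay below all 3 WT libraries, with a log2 fold change by edgeR of -0.59 ± 0.15, adjusted p = 0.0251.

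Beyond these, 80 of 83 fitted values were positive, with a median of 0.73 on the log2 scale against 0.01 over all genes. In 10 members every dnTGFB library lay above every WT library, against 12.8% of all genes, and in 1 every one lay below, against 19.9%. Neither Uqcrq nor Cox7a2l passed in a fit of the 6 libraries alone, where 0% of all genes did, and Uqcrq also failed without the low-count filter. With library totals as the scale no member passed, and the members' median was 0.63 beside -0.44 over all genes. The positive median rests on 1 library. Without dnTGFB library 3 it was -0.10, and 2 members rose and 15 fell at an adjusted p under 0.05, while 14.7% of all genes rose and 19.6% fell. Leaving out male WT library 1 as well gave 4 risen, 23 fallen and a median of -0.14, against 22.3% and 25.1% of all genes. The count was 13 without dnTGFB library 1, 23 without library 2, 1 without WT library 1, and 0 without WT library 2 or 3. For these counts the share of all genes is not given. In the fits with all libraries, without dnTGFB library 3 and without both of these libraries, Cox7a2l was among the fallen (-0.72 ± 0.08 without library 3, log2).

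Without library 3 the fallen members included Atp5g2 (-0.58 ± 0.08), Cox4i1 (-0.39 ± 0.08), Cox6a1 (-0.37 ± 0.10), Cox8a (-0.25 ± 0.09), Uqcrc2, a core protein of complex III (-0.39 ± 0.08), and Sdha, the flavoprotein of complex II (-0.26 ± 0.07, all log2). The 15 fallen of 83 tested members stand beside 19.6% of all genes, so their number does not set the chain apart. Of complex I, 4 of 35 fell and 1 rose, of complex IV 5 of 15 fell, and of complex V 2 of 16 fell. Uqcrq (0.42 ± 0.10) and Ndufb2 (0.38 ± 0.13), an accessory subunit of complex I, were those that rose. These changes are of at most about 0.7 on the log2 scale, and dnTGFB is then represented by 2 libraries of 1 pool. Over these libraries biliary markers differed as well: they summed to 1389, 3549 and 3540 CPM for WT and 496, 510.2 and 709 for dnTGFB. Neuron markers summed to 93.3, 157 and 181 CPM and 462, 434 and 6824, and Kupffer cell markers to 205, 441 and 452 CPM and 103, 100 and 118. With all 12 libraries 8 of 10 biliary markers and 6 of 8 Kupffer cell markers fell and all 10 neuron markers rose; their part in the result was not tested.

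**Figure D4:**
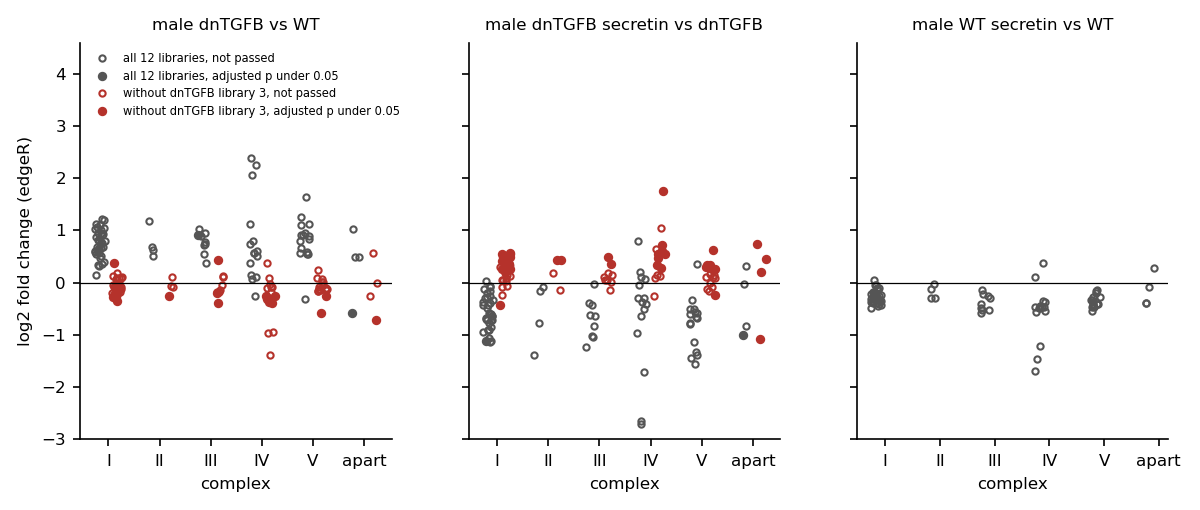
Log2 fold changes by edgeR of the 83 tested members by complex (apart marks Ndufa4, Ndufa4l2, Cox7a2l and Atp5s) in 3 male comparisons; each point is 1 gene, grey with all 12 libraries and red without dnTGFB library 3 (not drawn for WT secretin against WT), filled where the adjusted p is under 0.05. Leaving out that library moves the median from 0.73 to -0.10 in dnTGFB against WT and from -0.60 to 0.25 in dnTGFB secretin against dnTGFB.

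Secretin in male WT mice went with a level slightly below that of untreated WT across the chain. No member passed the test in edgeR with all 12 libraries, while 6.22% of all genes passed (3.55% rose and 2.67% fell). Without adjustment, 4 of 83 members had a p under 0.05, beside 3912 of all 18777 genes. The fitted value was negative for 79 of 83 members, with a median of -0.34 (log2) against -0.00 over all genes, and of -0.16 against 0.19 with library totals as the scale. In 63 of 83 members every WT secretin library lay below every WT library, against 21.4% of all genes, and in 1 member every one lay above, against 22% of all genes. The medians by complex were -0.30 for complex I, -0.21 for complex II, -0.41 for complex III, -0.47 for complex IV and -0.39 for complex V.

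The size differed between members, from -1.70 to 0.38. Cox4i1, the common form of subunit 4, was at 381, 456 and 470.1 CPM for WT and 319, 318 and 311 for WT secretin. Atp5g3 was at 208, 207 and 202 CPM for WT and 147, 136 and 140.2 for WT secretin, a difference of -0.54 ± 0.40, adjusted p = 0.493. Uqcrh, the hinge protein of complex III, was at 115, 131 and 134 and 90.4, 74.5 and 89.6 CPM. In each of these 3 genes the groups do not overlap. Other abundant members overlapped: Atp5b was at 533, 563 and 557 and 549, 476 and 480.2 CPM and Sdha at 192, 218 and 212 and 201, 182 and 188 CPM.

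Whether these members passed depended on which libraries set the spread. In a fit of the 6 libraries compared alone, 56 of 83 fell and none rose, while 15% of all genes fell and 13.3% rose; by complex 22 of 35, 2 of 4, 6 of 9, 10 of 15 and 14 of 16 fell. Without male WT library 1 and dnTGFB library 3, 67 fell and none rose, while 20.6% of all genes fell and 19.9% rose. Without both, Cox4i1 was at -0.55 ± 0.03, adjusted p = 3.06e-12 by edgeR, Cox6a1 at -0.60 ± 0.05, adjusted p = 1.76e-10 and Cox8a at -0.64 ± 0.06, adjusted p = 6.42e-09. DESeq2 on all 12 libraries gave 2 fallen members, and its share of all genes is not given. Male WT secretin libraries also differed from WT in Xist, at 30.1 to 37.4 CPM against 0.891 to 1.45 CPM, and in hepatocyte markers, at 14426, 14589 and 15082 CPM against 9036, 2871 and 2807; their part in the result was not tested.

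Secretin in male dnTGFB mice gave 2 members that fell and none that rose, beside 12.4% and 10.1% of all genes. Ndufs8, an iron-sulfur subunit of complex I, was at 50.2, 43.9 and 138 CPM for dnTGFB and 33.8, 33.7 and 36.0 for dnTGFB secretin, with no overlap and a log2 fold change by edgeR of -1.13 ± 0.34, adjusted p = 0.0378. Ndufa4l2 was at 8.89, 12.1 and 8.22 CPM for dnTGFB and 5.54, 5.17 and 4.11 for dnTGFB secretin, also with no overlap, and a log2 fold change by edgeR of -1.01 ± 0.24, adjusted p = 0.0170. Both kept their direction and passed without dnTGFB library 3, at -0.44 ± 0.09 and -1.09 ± 0.23. The value for Ndufs8 was then much smaller than with the library.

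In a fit of the 6 libraries alone no member passed, while 1.71% of all genes rose and 1.19% fell. Nor did any member pass without any 1 of the 3 dnTGFB secretin libraries, or with library totals as the scale. Without dnTGFB library 1 or 2, 13 and 18 fell, and the share of all genes in those fits is not given. Most other members had the opposite sign without dnTGFB library 3. Over all 12 libraries 76 of 83 values were negative, with a median of -0.60 on the log2 scale against -0.05 over all genes (-0.18 against 0.75 with library totals). In 7 members every dnTGFB secretin library lay below every dnTGFB library, against 18.2% of all genes, and in 1, Cox7a2l, every one lay above, against 22.8%. Without dnTGFB library 3 the median was 0.25, and 39 members rose and 3 fell, while 19% of all genes rose and 18.4% fell. The largest value in complex IV was then 1.75 (log2), that of the heart form Cox7a1. Cox5a, a subunit that lines complex IV on the matrix side, rose by 0.72 ± 0.09, adjusted p = 4.2e-05 (edgeR), with 56.4, 62.6 and 277 CPM for dnTGFB and 97.8, 99.0 and 96.0 for dnTGFB secretin. Cox4i1 was at 0.60 ± 0.08, Atp5g2 at 0.62 ± 0.08, Ndufs7, another iron-sulfur subunit of complex I, at 0.57 ± 0.07, and Sdhc, a membrane anchor of complex II, at 0.44 ± 0.06 (log2). By complex 18 of 35, 2 of 4, 2 of 9, 8 of 15 and 6 of 16 rose. Atp5b was the third that fell, at -0.23 ± 0.07. Biliary markers summed to 496, 510.2 and 709 CPM for dnTGFB and 6073, 5975 and 6004 for dnTGFB secretin, and neuron markers to 462, 434 and 6824 and 405, 465 and 483. Heart markers summed to 212, 363 and 16226 CPM for dnTGFB and 954, 893 and 945 for dnTGFB secretin. The part of these markers in the result was not tested.

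The interaction asks whether secretin acted differently in dnTGFB than in WT males. It passed for 1 member, Cox7a2l, at 0.72 ± 0.22, adjusted p = 0.0464 by edgeR, while 8.1% of all genes were higher and 7.51% lower. Cox7a2l was at 147, 178 and 174 CPM for WT, 125, 129 and 125 for WT secretin, 95.8, 107 and 129.8 for dnTGFB and 139.6, 137 and 137 for dnTGFB secretin: it was lower with secretin in WT and higher with secretin in dnTGFB, with no overlap in either case. That call was lost with DESeq2 size factors or library totals as the scale, without the low-count filter, and without any 1 library other than WT 1 or dnTGFB 3. Without dnTGFB library 3 the interaction passed for 63 members in the positive direction and 2 in the negative, with a median of 0.58, while 20.4% and 17.3% of all genes did. Among members that passed, the largest positive terms after Cox7a1 were then Cox5a (1.28 ± 0.13), Cox4i1 (1.06 ± 0.11), Uqcrh (1.06 ± 0.12) and Atp5g2 (1.05 ± 0.10), and the negative ones Ndufa4l2 (-1.01 ± 0.30) and Ndufs8 (-0.39 ± 0.12, all log2). These terms rest on the same libraries as the secretin comparisons above. Uqcrc2, Ndufb2, Cox5a, Ndufs7, Sdhc and Uqcrh were singled out in these fits after their values were seen.

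In females no member passed in any comparison of 2 groups, and no gene of 19882 did (0%). Against WT, 77 members had an unadjusted p under 0.05 in dnTGFB and 77 in WT secretin, and 77 in dnTGFB secretin against dnTGFB. The 0% above is after adjustment. A share of all genes at the unadjusted cut-off is not given, so these counts do not set the members apart. DESeq2 called 13 higher in dnTGFB, 69 higher in WT secretin and 3 lower in dnTGFB secretin. The share of all genes that DESeq2 called is not given, so these counts have no background beside them. The medians were 2.38 in dnTGFB against WT (0.10 over all genes), 2.65 in WT secretin against WT (0.11) and -2.37 in dnTGFB secretin against dnTGFB (-0.02), all on the log2 scale. Every dnTGFB library lay above every WT library in 12 members, against 11.9% of all genes. Every dnTGFB secretin library lay below every dnTGFB library in 3 members, against 9.12% of all genes, and above in 0, against 8.52%. With the 4 libraries rich in heart markers left out, they were -0.09, -0.38 and 0.09, no member passed, and 1, 0 and 1 had an unadjusted p under 0.05. WT secretin and dnTGFB are then 1 library each, assumed to vary like the other groups.

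Cox6a2 had the largest fitted difference, 5.88 ± 1.87, adjusted p = 0.140 by edgeR in WT secretin against WT, with 5.72, 35.7 and 14.7 against 12.2, 1648 and 1630 CPM. The groups overlap, since WT secretin library 1 lies among the WT libraries. Cox6a1 differed by -0.14 ± 0.19, adjusted p = 0.661 in the same comparison. Leaving out WT secretin library 1 gave 78 members higher at an adjusted p under 0.05, while 16.9% of all genes were higher; the remaining WT secretin libraries are those with 54035 and 62067 CPM of heart markers. The part of heart markers in this was not tested.

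The interaction in females passed for 77 of 83 members, all negative, with a median of -5.02, while 13.9% of all genes were negative and 4.03% positive. WT secretin and dnTGFB, the groups that hold the 4 libraries with heart markers, both enter this term with a negative sign, so high levels in these libraries add up. All 35 members of complex I passed, 4 of complex II, 9 of complex III, 11 of the 15 tested of complex IV and 16 of complex V. The largest terms were those of the heart forms, with Cox6a2 at -10.87 ± 2.59, adjusted p = 0.0408 by edgeR, Cox8b at -10.48 ± 2.56, adjusted p = 0.0408 and Cox7a1 at -9.81 ± 2.22, adjusted p = 0.0408. Ndufs1, the largest core subunit of complex I, was at -6.55 ± 1.52, Sdhb, the iron-sulfur protein of complex II, at -6.58 ± 1.64, Uqcrc1 of complex III at -6.41 ± 1.57 and Atp5g1 at -7.31 ± 1.82. The members that missed the threshold were Cox6a1 (0.05 ± 0.27, adjusted p = 0.904), Cox8a (-0.71 ± 0.33, adjusted p = 0.133), Cox4i2, Cox6b2, Cox7a2l and Ndufa4l2. All 10 heart markers passed in the same direction. Without the 4 libraries no member passed, no gene did, and the median was 0.49. The adjusted p of the named members was close to the threshold. Leaving out WT secretin 1 gave 79 members, while 23.1% of all genes were negative, and leaving out dnTGFB 3 gave 78. Leaving out any other 1 library gave 0 members, although 77 to 79 kept an unadjusted p under 0.05. The share of all genes at that unadjusted cut-off is not given. DESeq2 also gave 77, with its share of all genes not given, and library totals as the scale gave 0.

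The partners of the chain differed from it. The 13 subunits encoded by mitochondrial DNA, counted against the nuclear members, gave a ratio of 79.5, 10.6 and 10.7 for male WT, 25.8, 28.2 and 27.7 for WT secretin, 132, 136 and 3.69 for dnTGFB and 5.35, 4.98 and 5.49 for dnTGFB secretin. In females it was 26.2, 33.7 and 27.4, 10.2, 4.04 and 3.39, 3.36, 3.62 and 14.7 and 30.5, 11.4 and 8.59. The 5 libraries rich in heart markers had the lowest values of all 24. Male WT library 1 lies apart from the other WT libraries and nearer to dnTGFB 1 and 2.

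In male dnTGFB secretin against dnTGFB all 13 mitochondrial genes fell, with a median of -3.90 (log2) beside -0.60 for the nuclear members. mt-Co2 was at -3.75 ± 0.68, adjusted p = 0.00548 by edgeR and mt-Atp6 at -3.91 ± 0.71, adjusted p = 0.00548. In the male interaction 5 of 13 fell, and in the other male comparisons none passed. RNA of this kind was 5.31% to 5.66% of all counts in dnTGFB secretin 55.0% to 55.1% in dnTGFB 1 and 2, and 11.4% in dnTGFB 3. Beside these, 2 of 83 nuclear members fell in this comparison. The mitochondrial share of a library is also a sign of cell and RNA state, whose part was not tested.

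**Figure D5:**
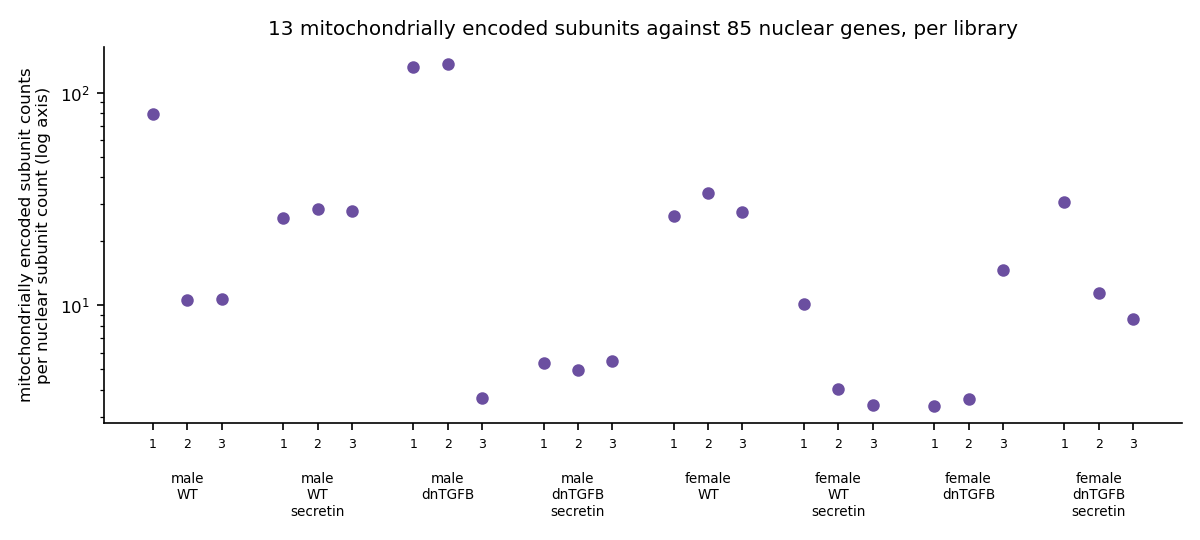
Counts of the 13 mitochondrially encoded subunits per count of the 85 nuclear genes (log axis) in each of the 24 libraries, by group and replicate number; each point is 1 library. Male dnTGFB 1 and 2 are highest at 132 and 136, and the 5 libraries with high heart markers lie between 3.36 and 4.04.

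Assembly factors and regulators were counted beside the same shares of all genes as the subunits: 8.55% risen and 8.46% fallen in male dnTGFB against WT, 3.55% and 2.67% in WT secretin, and 10.1% and 12.4% in dnTGFB secretin against dnTGFB. In males their values are given only from the fit with all 12 libraries. That fit includes dnTGFB library 3, and how far the male dnTGFB values of these genes depend on it was not tested. Of the 14 complex I assembly factors none passed in male dnTGFB against WT or dnTGFB secretin against dnTGFB, and Foxred1 fell in WT secretin (-0.79 ± 0.15, adjusted p = 0.0117 by edgeR). Of 17 tested complex IV factors, Cox16 rose (0.63 ± 0.18, adjusted p = 0.0275) and Cox19 fell (-0.69 ± 0.20, adjusted p = 0.0344) with secretin in male dnTGFB. Atpaf1, which assembles the F1 part of ATP synthase, rose in male dnTGFB (1.59 ± 0.44, adjusted p = 0.0306) and fell with secretin there (-1.58 ± 0.43, adjusted p = 0.0272). Of 15 tested carriers and exchange proteins, Ucp2 fell in male dnTGFB (-1.07 ± 0.28, adjusted p = 0.0238). Ucp1, the uncoupler of brown fat, fell with secretin in male WT (-4.37 ± 0.88, adjusted p = 0.0160) and in male dnTGFB (-3.30 ± 0.96, adjusted p = 0.0324). Library 1 of each of these secretin groups had 0 reads of Ucp1, so its values reach the floor of detection. Slc25a5 fell with secretin in male dnTGFB (-0.70 ± 0.20, adjusted p = 0.0292).

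Of 15 biogenesis factors, Gabpb1, a partner of the ETS factor GABP, fell with secretin in male WT (-1.12 ± 0.25, adjusted p = 0.0238 by edgeR), and Nrf1, the gene of NRF-1, rose with secretin in male dnTGFB (0.66 ± 0.20, adjusted p = 0.0379). No biogenesis factor passed in male dnTGFB against WT. In the female interaction 8 of 14 complex I factors, 9 of 10 factors of complexes II and III, 9 of 17 of complex IV, 3 of 3 of complex V, 12 of 16 carriers, 9 of 15 biogenesis factors and 2 of 13 mitochondrial genes passed in the negative direction, and Gabpb1 passed in the positive, while 13.9% of all genes were negative and 4.03% positive. Without the 4 heart-rich libraries no gene passed. With all 12 libraries the medians of the lists of nuclear genes lay between -2.43 and -4.52, beside -5.02 for the nuclear subunits and -0.67 for the mitochondrial ones. Without the 4 libraries the median of the nuclear subunits was 0.49. In the 2-group comparisons of females none of these genes passed.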

How the data were processed

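RNA from cholangiocyte pools, 500 ng per library with poly(A) selection per the labels' protocols, was sequenced in 24 libraries. The authors deposited raw read counts per gene, which were used as deposited; aligner, counting tool, strand setting and annotation version: not given in the sources used here. Gene coordinates in the files matched GENCODE M21 (GRCm38) exactly for 44823 of 49013 shared genes, and biotypes and coding sequences came from it. Libraries were grouped by title.

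Each sex was fitted with its 12 libraries in edgeR 4.0.16 (R 4.3.3): TMM scaling, filterByExpr (18777 male and 19882 female genes left), robust quasi-likelihood F test, Benjamini-Hochberg adjustment over all genes and a threshold of 0.05 with no fold limit. The interaction is the secretin difference in dnTGFB minus that in WT. A standard error is the size of the log2 fold change over the root of its F value. Values per kilobase use the gene lengths of the files. Promoter windows and motifs came from RefSeq. An exact permutation test of 3 against 3 cannot go below p = 0.1 and was not used.

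Alternatives were DESeq2 1.42.0, DESeq2 size factors, library totals, no low-count filter, a replicate block, the compared groups alone, each library left out and sets of libraries left out. Replicate numbers were given per title and did not pair the libraries: deviations correlated above 0.1 in 2 of 18 male and 5 of 18 female pairs. The members and lists were chosen with earlier results of these data known. Named genes were the isoform genes, the largest increase and decrease per complex and comparison (or the most abundant member where none passed) and up to 4 genes per pathway list by adjusted p; 1 gene that this rule names is not reported here. The fit was tried on counts simulated for the male libraries, with known changes in dnTGFB against WT only. The simulation held no library that stands apart from its group, no female library and no interaction. It therefore does not bear on how the fits handle those.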

Additional observations from a re-analysis of the deposited data

Results flagged for a closer look

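The response to secretin differed between genotypes, by the interaction test in edgeR with Benjamini-Hochberg adjustment, for 1 member in males, Cox7a2l at 0.72 on the log2 scale. The call was lost with DESeq2 size factors, library totals, no low-count filter, the replicate block, and without any 1 library other than WT 1 or dnTGFB 3. Without male WT library 1 and dnTGFB library 3 together the count was 67, and Cox7a2l was at 0.93 ± 0.07, adjusted p = 2.27e-10. In females the same test passed for 77 members, among them Cox6a2 at -10.87, Cox8b at -10.48 and Cox7a1 at -9.81. With the 4 libraries rich in heart markers left out, no member passed and these 3 were at 1.97, 2.57 and 1.28.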

How the results depend on the processing

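DESeq2 gave 6 members in male dnTGFB against WT, 2 in WT secretin against WT, 8 in dnTGFB secretin against dnTGFB and 4 in the male interaction, and 13, 69 and 3 in the female comparisons of groups in the same order. Library totals gave 0 in male dnTGFB against WT, in dnTGFB secretin against dnTGFB and in both interactions; they moved the median of all male genes to -0.44, 0.19, 0.75 and 0.50 in the order above. DESeq2 size factors gave 0 in the male interaction, and no low-count filter gave 1 in male dnTGFB against WT and 0 in the interaction. The replicate block gave 1, 1 and 0 in male dnTGFB against WT, dnTGFB secretin against dnTGFB and the interaction, and 0 in the female interaction; it moved no other count. Fits of the compared groups alone gave 0, 56 and 0 in the 3 male comparisons and cannot give an interaction. Without male WT library 1 and dnTGFB library 3 the male counts were 27, 67, 49 and 67. The female interaction gave 0 without the heart-rich libraries and without the libraries close to another group. Leaving out each library in turn gave 0 to 23, 0 to 0, 0 to 42 and 0 to 65 in the 4 male results, 0 to 78 in female WT secretin against WT, 0 to 79 in the female interaction and 0 to 0 in the other female comparisons. Without division by length the heart isoforms' share in male dnTGFB secretin was 9.01%. Shares of all genes are given above for some of these settings only, so the counts here show how the calls move with the setting. The cause of the differences between settings was not tested.

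Signs turned as follows (log2). Without male WT 1 and dnTGFB 3, dnTGFB against WT gave Cox4i1 -0.48, Cox6b1 -0.31, Cox8a -0.33 and Sdha -0.31; dnTGFB secretin against dnTGFB gave Cox4i1 0.59, Cox6b1 0.55, Ndufa4 0.20, Atp5g3 0.29 and Sdha 0.17; the interaction gave Cox7a1 2.88, Cox7a2 0.69, Cox7b 0.40, Ndufa4 0.61, Atp5g3 0.83, Sdha 0.34 and Uqcrc1 0.36. Leaving out 1 library at a time, the value without dnTGFB 3 was the lowest or highest, opposite in sign to that with all libraries. Over these fits dnTGFB against WT ran from -0.39 to 0.77 for Cox4i1, -0.26 to 0.89 for Cox6b1, -0.25 to 0.28 for Cox8a and -0.26 to 0.96 for Sdha. In dnTGFB secretin against dnTGFB, Cox4i1 ran from -0.57 to 0.60, Cox6b1 from -0.59 to 0.56, Cox7a1 from -2.26 to 1.75, Ndufa4 from -1.13 to 0.21 and Atp5g3 from -0.85 to 0.29. In the interaction, Cox7a1 ran from -1.04 to 2.96, Cox7a2 from -0.27 to 0.63, Cox7b from -0.90 to 0.45, Ndufa4 from -0.75 to 0.59, Atp5g3 from -0.31 to 0.84, Sdha from -0.93 to 0.30 and Uqcrc1 from -1.13 to 0.35. Without the heart-rich libraries the female interaction gave Cox4i1 0.17, Cox6a2 1.97, Cox6b1 0.38, Cox7a1 1.28, Cox7a2 0.59, Cox7b 0.74, Cox8b 2.57, Ndufa4 0.48, Atp5g1 1.32, Atp5g2 0.20, Atp5g3 0.72, Ndufs1 0.47, Sdhb 0.93 and Uqcrc1 0.70. The shallowest library, male dnTGFB 3, has 1429218 counts, which limits the precision of its low members.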
